A study of Rattus norvegicus with 2 samples.

Results

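The S100 genes of the rat optic nerve were examined as a family of 8 genes: S100b (ENSRNOG00000001295), S100a1 (ENSRNOG00000012410), S100a4 (ENSRNOG00000011821), S100a6 (ENSRNOG00000011647), S100a10 (ENSRNOG00000023226), S100a11 (ENSRNOG00000010105), S100a13 (ENSRNOG00000012393) and S100a16 (ENSRNOG00000012053). They were taken by symbol from the 25399 genes of the deposited tables, which hold other S100 genes too. The choice was made with earlier results of these data known, so that all 8 were detected is not a finding. The cells came from optic nerves of WT rats and of Nuc1 rats, a strain with a spontaneous insertion in Cryba1, the gene of βA3/A1-crystallin, with 1 single-cell library per genotype. Both libraries carry the label of postnatal day 7, and the labels give no treatment. The study's methods describe mixed primary glial cultures, and give 2 days as the age of the pups for its astrocyte cultures, so how long these cells had been in culture is not known here. Neither source says how many rats were pooled. The WT library held 34517542 UMIs (unique molecular identifiers, which count captured transcript molecules) in 2107 cell barcodes. The Nuc1 library held 35794685 UMIs in 1929 barcodes, and 2 barcodes occurred in both libraries. After filters on genes, mitochondrial share and doublets, 1963 WT cells (median 14050 UMIs) and 1782 Nuc1 cells (median 16577.5 UMIs) were kept. Cryba1 had 0 UMIs in both libraries, so the genotype labels could not be checked from it.

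S100 proteins are small proteins that carry a pair of EF-hand motifs, the helix-loop-helix fold that binds calcium, and that act as dimers. When calcium enters the cell most of them expose a surface that grips partner proteins, such as annexins, myosin or p53, and some are also released and bind receptors such as RAGE. S100b is a classical protein of astrocytes and Schwann cells. S100a4 and S100a6 are known from fibroblasts and from motile or growing cells, and S100a10 is an exception in the family, since it binds annexin A2 without calcium.

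Most of the family sits in 1 gene cluster. In the RefSeq annotation of the rat (assembly GRCr8) S100a1, S100a13, S100a16, S100a4 and S100a6 follow each other on chromosome 2 in that order, with other S100 genes between some of them. S100a11 and S100a10 lie further along the same chromosome, and S100b lies apart on chromosome 20. The order is shown here because neighbours on the chromosome, such as S100a4 and S100a6, had different patterns across cells. The 150 bases upstream of the annotated start are printed, 5′ to 3′ on the strand of the gene, for 4 members. These are S100b and S100a16, 2 of the members that were highest in astrocyte-like cells, and the neighbours S100a4 and S100a6. The sequences are from the RefSeq promoter table of GRCr8, which holds 6 of the 8 members. Their positions are chr20:12381082-12381231 on the minus strand for S100b, and chr2:178388379-178388528, chr2:178398387-178398536 and chr2:178313836-178313985 on the plus strand for S100a4, S100a6 and S100a16.
S100b: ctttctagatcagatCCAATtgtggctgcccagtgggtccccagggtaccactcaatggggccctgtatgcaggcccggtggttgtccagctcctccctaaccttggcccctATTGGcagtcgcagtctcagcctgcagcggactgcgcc
S100a4: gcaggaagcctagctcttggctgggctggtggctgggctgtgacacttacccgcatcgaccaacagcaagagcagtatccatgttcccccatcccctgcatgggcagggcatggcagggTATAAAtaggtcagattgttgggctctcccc
S100a6: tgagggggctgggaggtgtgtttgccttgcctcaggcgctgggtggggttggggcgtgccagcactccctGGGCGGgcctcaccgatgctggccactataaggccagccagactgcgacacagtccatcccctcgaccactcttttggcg
S100a16: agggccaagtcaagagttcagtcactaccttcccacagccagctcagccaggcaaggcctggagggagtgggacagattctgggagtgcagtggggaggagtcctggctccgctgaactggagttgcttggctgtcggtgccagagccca
Capitals mark matches, on either strand, to the letters CCAAT (the CCAAT box), TATAAA (the TATA box) or GGGCGG (the GC box). No 2 of the matches printed overlap. An AP-1 site (TGANTCA) and a STAT site (TTCNNNGAA) were searched too. S100b had 3 CCAAT matches within 250 bases, starting 246, 135 and 38 bases before the start of the gene, the first outside the printed window. S100a4 had a TATAAA match at 31 bases, and S100a6 a GGGCGG match at 80 bases, while the printed window of S100a16 held none of these letters. Of 33469 rat promoters searched over 250 bases in the same way, 34.0% held CCAAT, 12.9% TATAAA and 30.5% GGGCGG. Of the 6 members searched over the same 250 bases, 2 held CCAAT, 1 TATAAA and 3 GGGCGG. The AP-1 and STAT letters were in 6.34% and 7.67% of them and in none of the 6 members. A match is a description of the sequence and not a site shown to be used.

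Clustering of the cells, for which the 8 S100 genes were left out, gave 10 clusters. Cluster 3 was astrocyte-like, with Gfap, Hspb1, Fabp7 and Aqp4 among its 10 leading genes, and it held 108 of the WT cells (5.50%) and 350 of the Nuc1 cells (19.6%). All 15 astrocyte markers listed were detected in it in both libraries. Gfap, the intermediate filament of astrocytes, had a level of 6866 CPM (WT) and 9587 CPM (Nuc1), where CPM scales a gene's UMIs to 1000000 UMIs of the cell group in that library. Aqp4, the water channel of their endfeet, had 1782 and 1671 CPM. Of 14 oligodendrocyte-lineage genes, 5 (WT) and 7 (Nuc1) were at 0 UMIs in this cluster, Mog, Mobp and Opalin among them, and the list summed to 318 (WT) and 248 CPM (Nuc1), with Cnp most abundant. Clusters 0, 1, 2, 4 and 5 were collagen-rich, with at least 4000 CPM of Col1a1 and Col3a1, and together held 1744 WT and 1266 Nuc1 cells. Cluster 0 was led by Igfbp5, cluster 1 by Actg2 and Penk, cluster 2 by Shisa3 and Cldn11, cluster 4 by Inmt and Cyp26b1, and cluster 5 by genes of dividing cells such as Cenpf and Top2a. Since Cldn11 is also a marker of oligodendrocytes and the limit on collagen was set after the data were seen, these clusters are also given by number. The remaining cells formed a motile-cilia cluster (cluster 6; 14 WT and 103 Nuc1 cells), an oligodendrocyte-lineage-like cluster (cluster 7; 52 and 10), a macrophage-like cluster (cluster 9; 23 and 22) and an unnamed cluster led by Ttr and Gldn (cluster 8; 22 and 31). Cluster 8 had 2542 CPM of the 2 collagens and fell outside the collagen-rich group, with 1.12% of WT and 1.74% of Nuc1 cells. The macrophage-like Nuc1 cells were shallow, with a median of 1807.5 UMIs, and the Nuc1 cells of cluster 7 held 106793 UMIs in all.

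The 3′ kit counts 1 tag per molecule, so levels do not scale with the length of the transcript. How well the 3′ end of each gene was captured and assigned was not tested, so sums over members and shares of them are approximate. Intervals are exact 95% intervals for counting error only. With 1 library per genotype there is no replicate error, no test was possible, and a difference between the libraries cannot be told apart from a difference between animals, cultures or runs. A gene is called higher or lower here when a ratio was at least 1.5-fold. For marker lists and single clusters, above and below the WT library give the sign of the log2 ratio only.

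Among astrocyte-like cells the 8 members summed to 7421 CPM (WT) and 11170 CPM (Nuc1). S100b was 48.2% and 48.6% of that sum. In the collagen-rich clusters the 8 members summed to 8520 CPM (WT) and 5252 CPM (Nuc1), and S100a6 was 66.3% and 58.2% of it. The leading member thus differed between these kinds of cell. Taken over all cells kept, S100b was at 377 CPM (WT) and 1655 CPM (Nuc1), 4.39-fold, against 1.52-fold within the astrocyte-like cells, whose share of the cells also differed between the libraries.

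**Figure D1:**
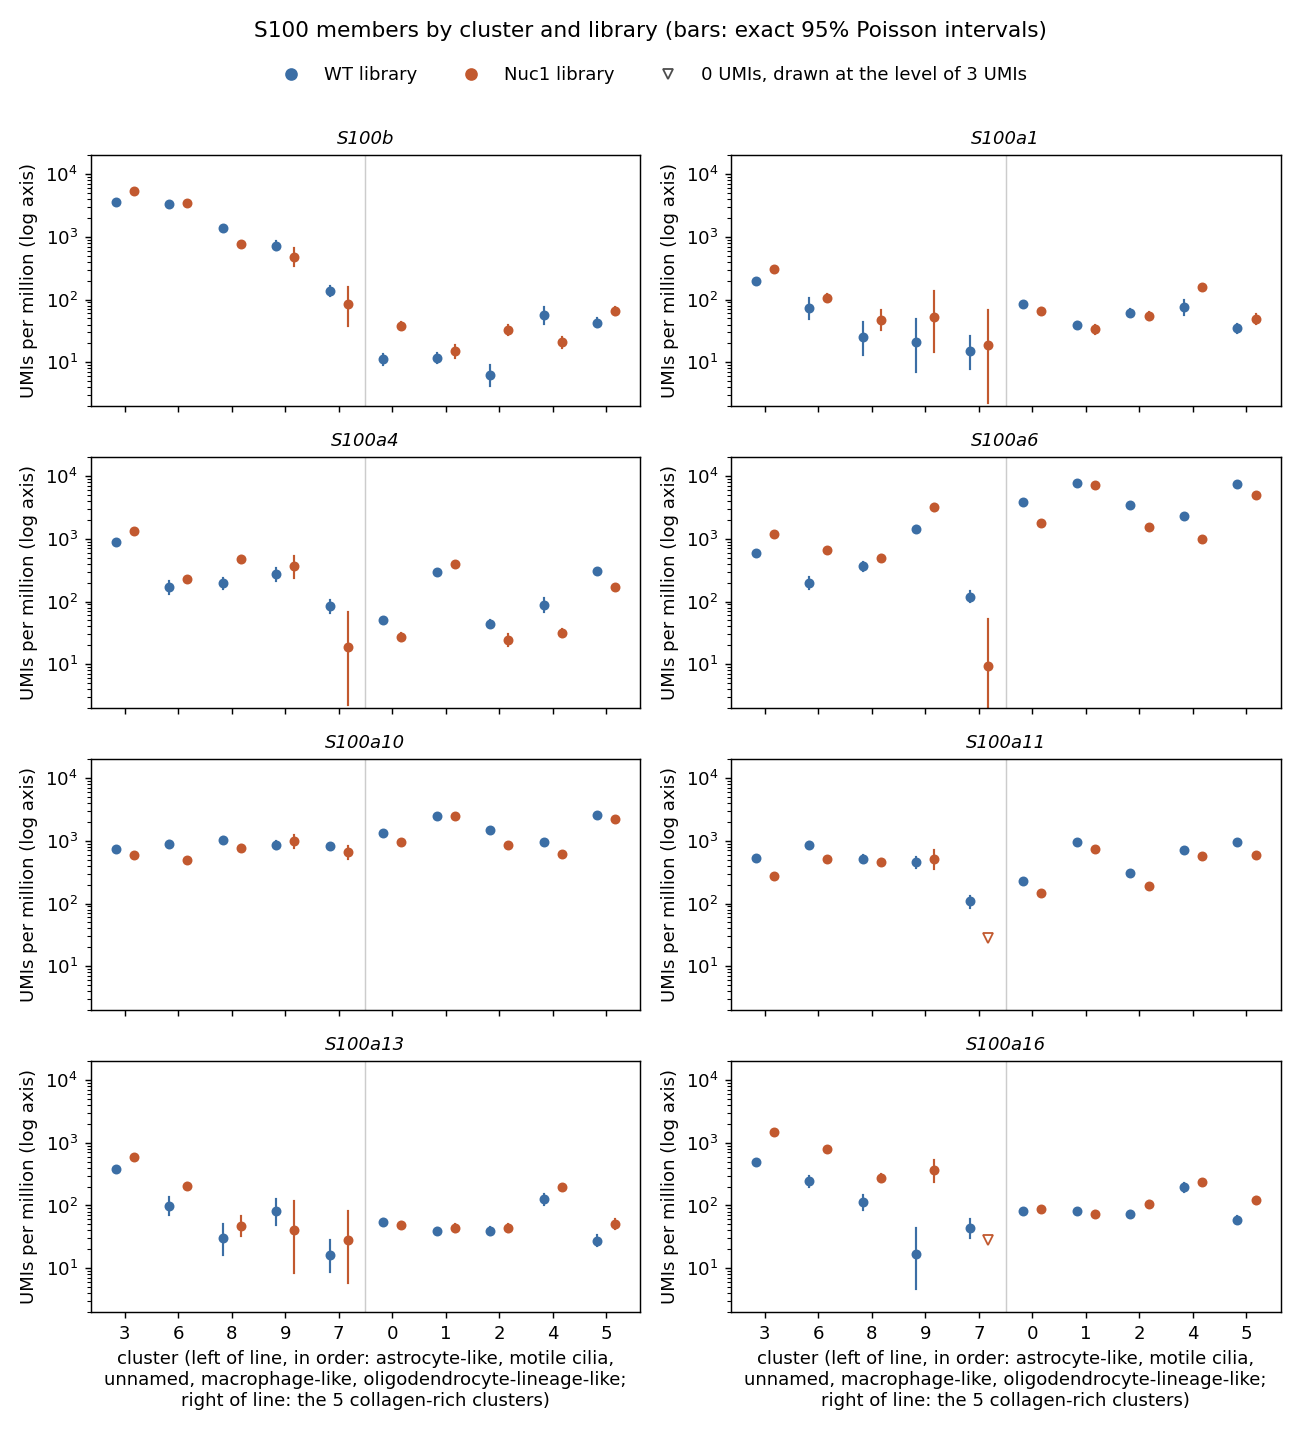
Level of each S100 member (CPM, log axis) in the 10 clusters, with 1 point per library and exact 95% Poisson intervals; open triangles are sums of 0 drawn at the level of 3 UMIs, and intervals that reach below 2 CPM end at the axis. S100b is highest in clusters 3 and 6 and lowest in the collagen-rich clusters, and S100a6 is highest in clusters 1 and 5.

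S100b, the calcium sensor used as a marker of astrocytes, was highest in the astrocyte-like cells of both libraries. It had 3573 CPM in WT and 5433 in Nuc1 cells, and a UMI of S100b was found in all 108 and all 350 cells. The motile-cilia cluster came next, at 3286 and 3450. The 2 libraries of the first cluster did not overlap those of the second, and the first was 1.34-fold above the second in the mean of the libraries. The unnamed cluster 8 had 1392 and 765 CPM and the macrophage-like cluster 725 and 483. In the latter the RNA was in few cells, since 8.70% of the WT and 13.6% of the Nuc1 cells had a UMI of S100b. Gfap, which macrophages should lack, had 139 (WT) and 74 UMIs (Nuc1) there beside 171 and 36 of S100b. The oligodendrocyte-lineage-like cells had 139 and 84.3 CPM, from 109 and 9 UMIs. Below them the 5 collagen-rich clusters lay between 6.28 and 66.1, and neighbours in this order overlapped between libraries.

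The low level of S100b in the collagen-rich clusters is given beside that of Gfap, which these cells should lack. When each cell was thinned to 5000 UMIs, 4.53% of WT and 7.48% of Nuc1 cells of cluster 0 had a UMI of S100b, and 2.78% and 10.2% had one of Gfap. Without thinning the shares were 11.9% and 20.5% for S100b and 6.95% and 23.0% for Gfap, at median depths of 11929 and 13331 UMIs. After thinning, the share for S100b was at or below that for Gfap in 4 of the 5 Nuc1 clusters and above it in 5 of the 5 WT clusters. The ratio of S100b to Gfap UMIs was 0.520 in the WT and 0.567 in the Nuc1 astrocyte-like cells. It was between 0.756 and 13.3 in the 5 WT collagen-rich clusters, and between 0.530 and 1.31 in the 5 Nuc1 ones. The highest, in WT cluster 4, rests on 40 UMIs of S100b and 3 of Gfap. The part of RNA picked up from other cells in these values was not tested. In clusters 3 and 6 every thinned cell but 1, a Nuc1 cell of cluster 3, had a UMI of S100b.

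S100a1, known for its action on the calcium release channel of the sarcoplasmic reticulum, S100a13, which takes part in the release of FGF1, and S100a16, a widely expressed member, shared the maximum of S100b at lower levels. S100a13 was at 378 CPM in WT and 583 in Nuc1 astrocyte-like cells, 2.98-fold above the next cluster in the mean of the libraries. That next cluster was cluster 4 of the collagen-rich cells, at 126 and 197, which overlaps the motile-cilia cluster, at 99.3 and 208. S100a1 had 196 and 309 CPM in the astrocyte-like cells, and cluster 4 had 74.8 and 159, overlapping the motile-cilia cluster, at 73.8 and 107. S100a16 had 494 and 1459. Its second highest cluster was the motile-cilia one, at 244 and 801, and here the libraries of the 2 clusters overlapped. These 3 genes also resembled each other across clusters. Over 19 values of cluster and library, Pearson's r of log2(CPM + 10) was 0.89 for S100a1 with S100a13, 0.84 for S100a1 with S100a16 and 0.78 for S100a13 with S100a16. The values share libraries and cells and are a description.

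S100a4, which binds nonmuscle myosin and is also called fibroblast-specific protein, was higher in astrocyte-like than in any other cells of these cultures. Astrocyte-like cells had 904 CPM of it (WT) and 1331 CPM (Nuc1). Cluster 1 had 290 and 402, cluster 8 had 194 and 468, cluster 9 had 271 and 362 and cluster 5 had 303 and 168, levels that overlap between the libraries and give no order. Clusters 0, 2 and 4 had between 24.4 and 88.9. After thinning to 5000 UMIs a UMI of S100a4 was found in 86.0% (WT) and 89.0% (Nuc1) of astrocyte-like cells, against 49.3% and 46.7% in cluster 1 and 17.8% and 9.48% in cluster 0. Without thinning these shares were 96.3% and 98.6%, 74.6% and 72.0%, and 38.4% and 25.7%.

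S100a6, or calcyclin, a partner of the ubiquitin ligase component Cacybp, had another pattern than its near neighbour S100a4. It was the most abundant member in the collagen-rich clusters, with 7809 CPM in WT and 7232 in Nuc1 cells of cluster 1, and 7543 and 5002 in the dividing cells of cluster 5. These clusters overlapped. Clusters 0, 2 and 4 had between 1010 and 3876. The macrophage-like cells had 1425 and 3206, the astrocyte-like cells 599 and 1190, and the oligodendrocyte-lineage-like cells 120 CPM (94 UMIs, WT), with 1 UMI for Nuc1. The macrophage-like values rest on 336 (WT) and 239 UMIs (Nuc1), the latter from shallow cells. The part of RNA picked up from other cells in them was not tested.

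S100a10, the light chain that joins annexin A2 at membranes, and S100a11, which binds annexin A1, were found in most cell groups. S100a10 lay between 499 and 2546 CPM in all 20 values and was highest in clusters 1 (2471 in WT, 2504 in Nuc1) and 5 (2546 and 2182). In the mean of the libraries S100a11 was highest in the same 2 clusters, at 945 and 752 in cluster 1 and 953 and 586 in cluster 5. These overlapped the motile-cilia cluster, at 858 and 517, which in turn overlapped cluster 4, at 705 and 570. S100a11 was low in the oligodendrocyte-lineage-like cells, at 108 CPM for WT and 0 UMIs for Nuc1, where 3 UMIs would be 28.1 CPM. The RefSeq annotation lists near-identical copies of both genes. Whether reads shared with such copies were counted or left out was not examined, so the levels of S100a10 and S100a11 are uncertain to that extent.

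Within each library the astrocyte-like cells were then compared with the collagen-rich clusters, which asks which members separate glia from fibroblast-like cells. In both libraries 5 of the 8 members were at least 1.5-fold higher in the astrocyte-like cells (S100b, S100a1, S100a4, S100a13 and S100a16), beside 15.7% of the 11663 genes with at least 20 UMIs. S100a6 and S100a10 were at least 1.5-fold lower in both, beside 26.3% of these genes. The median log2 ratio was 2.40 over the members and −0.27 over all genes. S100b had the largest ratio, with a log2 of 7.81 for WT (interval 7.68 to 7.95) and 7.45 for Nuc1 (7.34 to 7.56). Merging the libraries without integration gave 6.81 for WT and 7.75 for Nuc1. S100a13 was at 3.07 (2.96 to 3.19) for WT and 2.80 (2.72 to 2.87) for Nuc1. S100a6 was 9.43-fold lower in WT astrocyte-like cells and 2.57-fold lower in Nuc1 ones. When cells over 10% mitochondrial UMIs were removed before clustering, which left 28 WT astrocyte-like cells, the WT log2 ratio of S100a6 went from −3.24 to −2.25, that of S100a13 from 3.07 to 2.0, that of S100a4 from 2.42 to 1.5, that of S100a16 from 2.63 to 1.90, that of S100a1 from 1.75 to 0.73 and that of S100a10 from −1.36 to −0.59. With no doublets left out, that of S100a6 was −2.76. S100a11 was at −0.17 (−0.24 to −0.09) in the WT library, or 0.09 when cells over 10% mitochondrial UMIs were removed, and lower in the Nuc1 library, at −0.68 (−0.74 to −0.61). The 8 directions were the same in the 2 libraries.

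**Figure D2:**
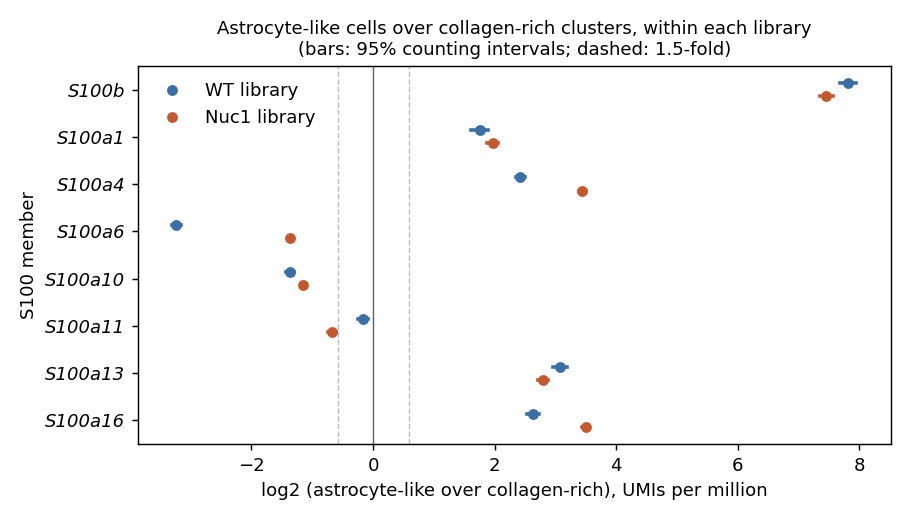
Log2 ratio of the level in astrocyte-like cells over that in the collagen-rich clusters for each member, with 1 point per library and 95% counting intervals; dashed lines mark 1.5-fold. S100b stands at 7.81 (WT) and 7.45 (Nuc1), and only S100a6, S100a10 and S100a11 are below 0.

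The study made these libraries to profile the RNA of astrocytes, with STAT3 signaling in Nuc1 cells as its question. Between the astrocyte-like cells of the libraries, S100a16 differed most. Its 494 CPM in WT and 1459 in Nuc1 cells differ 2.95-fold, or by a log2 ratio (Nuc1 over WT) of 1.56 (1.48 to 1.64). In single cells its median was 444 CPM (WT) and 1272 CPM (Nuc1). The 75th percentile of the WT cells, 626, was below the 25th percentile of the Nuc1 cells, 767. S100a6 was 1.99-fold higher in the Nuc1 cells, with a log2 ratio of 0.99 (0.92 to 1.07). This value depended on the cells kept: it was 0.60 with no doublets left out and −0.11 (−0.20 to −0.01) when cells over 10% mitochondrial UMIs were removed before clustering. S100a6 had the largest ratio of the upper to the lower quartile among cells, with quartiles of 48.9 and 733 in WT and 64.5 and 1458 in Nuc1 cells. S100a11 was lower, with 536 (WT) and 271 CPM (Nuc1), or −0.99 as a log2 ratio (−1.08 to −0.89).

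Of the 8 members, 5 were at least 1.5-fold higher in the Nuc1 astrocyte-like cells (S100b, S100a1, S100a13, S100a16 and, with the dependence just given, S100a6), beside 9.0% of genes (955 of 10611). S100a11 was at least 1.5-fold lower, beside 16.9% of genes. S100b, S100a1 and S100a13 stood close to the limit, with log2 ratios of 0.60 (0.57 to 0.64), 0.66 (0.52 to 0.79) and 0.62 (0.53 to 0.72), and S100a4 just under it at 0.56 (0.50 to 0.62). S100a10 was at −0.32 (−0.39 to −0.24). When cells over 10% mitochondrial UMIs were removed before clustering, these 5 moved to 1.42 (S100b), 1.72 (S100a1), 1.63 (S100a13), 1.22 (S100a4) and −0.93 (S100a10), so that S100a4 passed the limit as higher and S100a10 as lower. The median of the members was 0.61, and that of all genes −0.12. Over the 7613 genes with at least 100 UMIs the median was −0.11, and the shift between the libraries by TMM scaling was −0.17. Scaled to that median or by TMM, S100a4 was at 0.67 or 0.73, past the limit. This made 6 members higher and 1 lower by either. Other settings ended calls: merging without integration put S100b at 0.53 and S100a1 at 0.57. Thinning to 10000 UMIs per cell put these genes at 0.55 and 0.48, and 3 members were higher by either setting. S100b was also under the limit with no clustering, at 0.55, and by the mean of single cells, at 0.56.

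**Figure D3:**
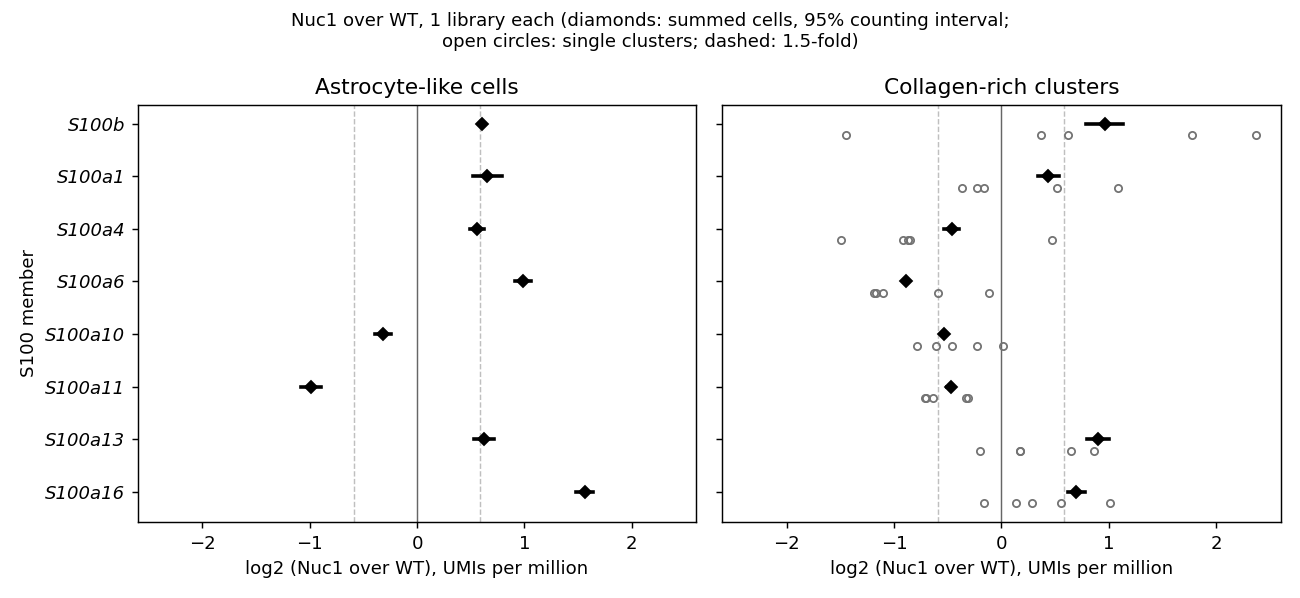
Log2 ratio of Nuc1 over WT for each member in astrocyte-like cells (left) and in the collagen-rich clusters (right), as diamonds with 95% counting intervals, from 1 library per genotype; open circles are the 5 single clusters. S100a16 is at 1.56 in the astrocyte-like cells, S100a6 is at 0.99 on the left and −0.89 on the right, and S100a11 is below 0 in both.

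**Figure D4:**
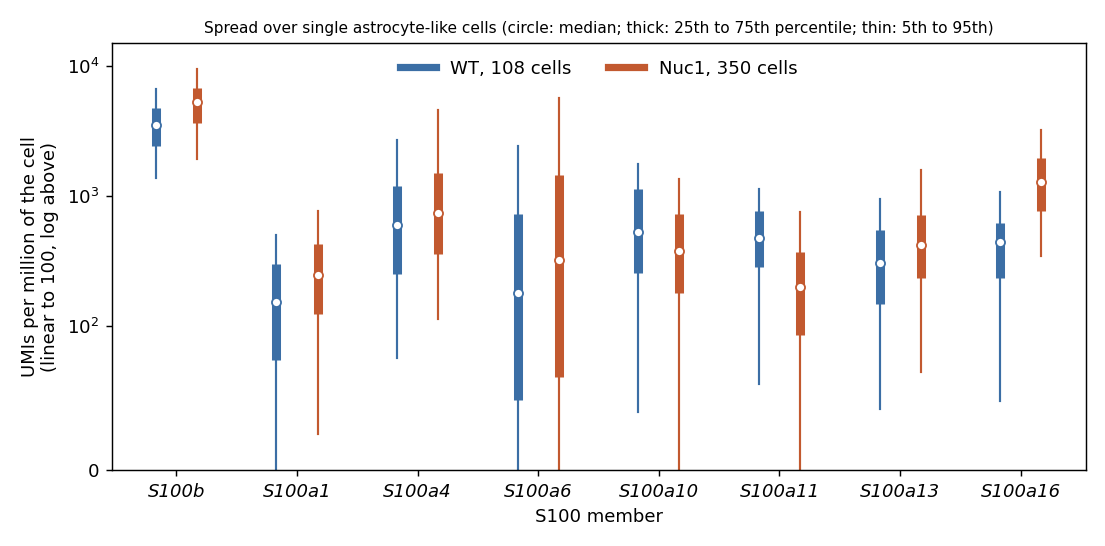
Spread of each member over single astrocyte-like cells (CPM of the cell, linear up to 100 and log above) in the WT library (108 cells) and the Nuc1 library (350 cells), as median, quartiles, and 5th and 95th percentiles. The quartile ranges of S100a16 do not overlap between libraries, and S100a6 runs from 0 to 2426 (WT) and from 0 to 5679 (Nuc1) between the 5th and 95th percentiles.

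Other properties of the astrocyte-like cells also differed between the libraries. The median mitochondrial share was 12.9% of UMIs in WT and 10.9% in Nuc1 cells, and 84.3% and 57.4% of the cells were above 10%. The 15 astrocyte markers, most abundant Gfap, summed to 40640 CPM (WT) and 50338 CPM (Nuc1), with 12 above and 3 below WT. The 6 markers of dividing cells, most abundant Cenpf, summed to 286 CPM in WT and 51.2 in Nuc1 cells, and all 6 were below WT. The 11 markers of motile cilia, most abundant Dynlrb2, summed to 95.7 and 233, with 10 above WT, none below and 1 detected in Nuc1 cells only. The 9 fibroblast markers, most abundant Fn1, summed to 2144 and 943, with 7 below WT. Of the 7 oligodendrocyte-lineage genes with at least 20 UMIs, 5 were below and 2 above WT, and Gpr17 and Neu4 were at 0 in both, as were Mog, Mobp and Opalin. S100a16 kept a log2 ratio between 1.49 and 1.83 when astrocyte-like cells rich in dividing, cilia or fibroblast markers were left out, and among the cells of this cluster above, or at or below, 10% mitochondrial UMIs. Among the 91 WT and 201 Nuc1 cells above 10%, S100b was at 0.42, S100a1 at 0.50, S100a13 at 0.45, S100a6 at 0.79 and S100a11 at −1.14, so 2 members and not 5 were at least 1.5-fold higher. Without cells rich in dividing-cell markers the count was 2 as well, with S100b at 0.54, S100a1 at 0.56 and S100a13 at 0.58. Among the 17 WT and 149 Nuc1 cells of this cluster at or below 10%, 6 members were at least 1.5-fold higher, with S100b at 1.31, S100a1 at 1.15, S100a13 at 1.16 and S100a4 at 0.73, and S100a10 was at −0.87. S100a6 was at 2.62 (2.29 to 2.98) in these cells, whereas the −0.11 after reclustering came from 28 WT and 179 Nuc1 cells. The part of these differences in the S100 ratios was not tested further.

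Among single astrocyte-like cells thinned to 10000 UMIs, S100a1, S100a13 and S100a16 had positive rank correlations with each other. Spearman's rho in 106 WT and 328 Nuc1 cells was 0.42 and 0.58 for S100a13 with S100a16, 0.42 and 0.41 for S100a1 with S100a13, and 0.38 and 0.45 for S100a1 with S100a16. S100b had 0.32 and 0.38 with Aqp4, and 0.50 and 0.29 with Gfap. The cells of a library share its preparation, and counts of single cells are sparse, so these values are a description.

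In the collagen-rich clusters summed per library, 3 members were at least 1.5-fold higher in the Nuc1 library (S100b, S100a13 and S100a16), beside 13.1% of 12386 genes, and S100a6 was at least 1.5-fold lower, beside 10.6% of genes. The median was −0.01 over the members and 0.03 over all genes. The median mitochondrial share of these cells was 9.08% (WT) and 8.96% (Nuc1). Gfap was at least 1.5-fold higher in the Nuc1 cells of each of the 5 clusters, for example 5.46 and 29.4 CPM in cluster 0, and S100b in 3 of them. The ratio of S100b, 0.96 (0.79 to 1.14), was −0.41 when the libraries were merged without integration. S100a6 had 5647 CPM (WT) and 3057 CPM (Nuc1), a log2 ratio of −0.89 (−0.90 to −0.87). It was below WT in each of the 5 clusters, with log2 ratios from −1.19 in cluster 4 to −0.11 in cluster 1, and at least 1.5-fold lower in 4 of them. S100a11 was below WT in all 5, with log2 ratios from −0.71 to −0.31, and at least 1.5-fold lower in 3. S100a4 was at least 1.5-fold lower in 4 of them, at −1.49 to −0.85, and above WT in cluster 1, at 0.47 (0.39 to 0.55). S100a10 was below WT in 4 clusters, at least 1.5-fold in 2 of these, and at 0.02 (−0.01 to 0.05) in cluster 1.

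The make-up of this group differed between the libraries, and for several members the summed ratio differed from the ratios within clusters. Cluster 1 held 29.1% of WT and 12.0% of Nuc1 cells, and cluster 4 held 2.75% and 20.5%. S100a13 had a summed log2 ratio of 0.90 (0.80 to 1.01), which is above its ratio in every single cluster (−0.20 to 0.86), and the mean of the 5 clusters was 0.33. S100a1 had a summed ratio of 0.44. It was below WT in 3 of the 5 clusters, with an interval below 0 in 1 of them, and the mean of the 5 was 0.17. S100a16 was at 0.70 summed and at 0.37 in the mean of the clusters. By that mean, S100b alone was at least 1.5-fold higher, at 0.74, from levels between 6.28 and 66.1 CPM. Its clusters differed in direction, from −1.44 (−1.97 to −0.89) in cluster 4 to 2.37 in cluster 2. By the same mean S100a4 (−0.73) and S100a6 (−0.83) were at least 1.5-fold lower.

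S100a16 was also higher in the Nuc1 library in the smaller clusters 6 and 8. Motile-cilia cells held 96 (WT) and 1735 UMIs (Nuc1) of it, or 1.71 as a log2 ratio (1.42 to 2.03), and 1.27 (0.82 to 1.75) in cluster 8. S100b was level in the motile-cilia cells, at 0.07 (−0.02 to 0.16), and lower in cluster 8, at −0.86 (−1.04 to −0.69). S100a6 was higher in the motile-cilia cells, at 1.76 (1.43 to 2.11), from 78 UMIs in 14 WT cells. S100a16 in the macrophage-like cells, with 4 (WT) and 27 UMIs (Nuc1), rests on few UMIs, and its interval runs from 2.89 to 6.39 on the log2 scale. In the oligodendrocyte-lineage-like cells S100a16 had 34 (WT) and 0 UMIs (Nuc1), and the upper limit of the log2 ratio, −0.25, is short of 1.5-fold.

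Other S100 genes were rare. S100a3, a neighbour of S100a4, was the exception: it had 81.9 CPM in WT and 103 in Nuc1 astrocyte-like cells and 2.50 and 7.87 in the collagen-rich clusters. S100a7a and S100a9 had 0 UMIs in the cells kept of both libraries, where 3 UMIs would be 0.0886 CPM (WT) and 0.0865 CPM (Nuc1). S100a8, the partner of S100a9 in neutrophils, had 2 UMIs, S100z 1 UMI, and S100a5 34 and 42. S100g, the calbindin-D9k gene, had 31 UMIs, all in the Nuc1 library and 30 of them in cluster 2. S100a14 is not analysed here.

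Of 23 genes for known partners and receptors of S100 proteins, 22 were found by symbol. Between the libraries, 2 of the 18 with at least 20 UMIs in the astrocyte-like cells were at least 1.5-fold higher in Nuc1 (Syt1, a calcium sensor of vesicle release, from 5 and 44 UMIs, and Mdm2, the ubiquitin ligase of p53, from 99 and 523 UMIs), and 1 was lower (Slc8a1, a sodium-calcium exchanger, from 13 and 22 UMIs, log2 ratio −0.91 with an interval of −1.96 to 0.20). Over all genes 9.0% were higher and 16.9% lower. The median log2 ratio of the partners was 0.13, against −0.12 over all genes. Anxa2, the partner of S100a10, was at −0.13 (−0.21 to −0.05), Anxa1, the partner of S100a11, at 0.25 (0.19 to 0.31), and Cacybp, the partner of S100a6, at −0.21 (−0.37 to −0.05). Ager, the gene of RAGE, a receptor for released S100b, had 3 and 2 UMIs in these cells. Against the collagen-rich clusters, none of 20 partners was at least 1.5-fold higher in the astrocyte-like cells of both libraries, beside 15.7% of all genes, and 6 were lower: Anxa2, Ahnak, Tlr4, Fgf1, Capzb and Slc8a1. That is near the 26.3% of all genes that were lower. Anxa2 had 585 CPM in WT and 534 in Nuc1 astrocyte-like cells and 1063 and 824 in the collagen-rich clusters, lower in the same cells as S100a10.

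Of 17 other genes with EF hands, 15 reached 20 UMIs in the astrocyte-like cells. Between the libraries 4 of these were at least 1.5-fold lower in Nuc1 (Pvalb, Myl9, Calu and Rcn1) and none was higher, beside 16.9% and 9.0% of all genes, with a median log2 ratio of −0.36 against −0.12 over all genes. Against the collagen-rich clusters 4 were lower in both libraries (Myl9, Calu, Rcn1 and Sparc), near the 26.3% of all genes, and Calm3, Calb1 and Pvalb were among those at least 1.5-fold higher. Calb1, calbindin-D28k, stood with S100b: it had 348 CPM in WT and 467 in Nuc1 astrocyte-like cells, and 0.446 and 2.77 in the collagen-rich clusters.

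For each member, the 3 genes with the most similar pattern were sought among 7925 genes over the same 19 values of cluster and library. S100b was closest to Mlc1 (r = 0.97), Aqp4 (0.97) and Mt3 (0.97), which are astrocyte markers of the list used for the cluster name. S100a1 was closest to Fam107a (0.84), S100a4 to Fjx1 (0.88) and Cryab (0.87), and Dmpk (0.89) and Fxyd1 (0.88) were among the 3 genes of S100a16. S100a13 was closest to Moxd1 (0.88). S100a6 was closest to Plp2, Ube2l6 and Penk, the last of them (0.91) a leading gene of cluster 1. S100a10 was closest to Serpinb10 (0.92) and S100a11 to Clic1 (0.91), and Anxa1, a partner of S100a11, was among its 3 genes (0.87). The least alike members were S100b and S100a10, with r = −0.59.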

How the data were processed

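Both libraries were made with a 10x 3′ kit. The authors used Cell Ranger 3.1.0, STAR 2.7 and Seurat 3.1.0 and 3.1.1 per the labels, and deposited raw UMI counts per gene and barcode. The genome build is not given in the sources used here. A cell was kept when 500 or more genes were detected and mitochondrial UMIs made up no more than 20%. Scrublet (scanpy 1.11.5, expected rate 2%) marked 5 WT and 11 Nuc1 cells as doublets, which were left out, and doublets can remain. Cells were integrated and clustered in Seurat 5.3.0 (R 4.3.3; 2000 variable genes without the 8 members, 30 components, resolution 0.5). A cluster was named when at least 3 listed markers were among its 10 leading genes.

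UMIs were summed per cluster and library. Intervals are exact Poisson, Clopper-Pearson for shares and conditional for ratios. For a sum of 0 the level of 3 UMIs is given as a floor. Named genes are the 8 members, fixed lists of other S100 genes, partners and EF-hand genes, and the 3 genes most alike each member. The members and lists were chosen with earlier results of these data known. The ratio step was run on simulated sums with counting error only. These hold no variation between cells, cultures or animals, so they say nothing about such error. Some genes that these rules name are not reported here.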

Additional observations from a re-analysis of the deposited data

Results flagged for a closer look

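S100a4 and S100a6 stand out because their Nuc1 over WT ratios had opposite signs in the 2 cell groups. S100a4 had a log2 ratio of 0.56 in the astrocyte-like cells and −0.46 in the collagen-rich clusters, both short of 1.5-fold. S100a6 had 0.99 and −0.89. All 4 counting intervals lay away from 0, but they hold no error between libraries. With 1 library per genotype the difference between the cell groups was not tested, and both groups of a library share its preparation. Within the collagen-rich group S100a6 and S100a4 were each at least 1.5-fold lower in 4 of 5 clusters. In cluster 1 S100a4 was above WT, at 0.47 (0.39 to 0.55), and S100a6 was at −0.11. The sign of S100a6 in the astrocyte-like cells turned to −0.11 when cells over 10% mitochondrial UMIs were removed before clustering. S100a4 in these cells kept its sign under the alternatives, between 0.30 and 1.22.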

How the results depend on the processing

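No paired analysis was possible because there was a single library of each genotype. Of 424 values of single members under the alternatives, 289 stayed within the counting interval, 133 moved outside it and 2 that were at least 1.5-fold as reported changed sign. These were S100a6 in astrocyte-like cells, at −0.11 with at most 10% mitochondrial UMIs and reclustering, and S100b in the collagen-rich clusters, at −0.41 when libraries were merged without integration. Among those that moved, S100a11 in WT astrocyte-like over collagen-rich cells went from −0.17 to 0.09. The causes were not tested. The count of members at least 1.5-fold higher in Nuc1 astrocyte-like cells was 5 as reported, 4 to 6 under most alternatives, 3 when merging without integration or thinning to 10000 UMIs per cell, 2 without cells rich in dividing-cell markers or among cells above 10% mitochondrial UMIs, and 1 at 2-fold. The count lower there was 1 as reported, 2 with at most 10% mitochondrial UMIs, with or without reclustering, and 0 at 2-fold. In the collagen-rich clusters the higher count was 3 as reported, 2 when merging without integration or with no clustering, 1 by the mean of the 5 clusters and 0 at 2-fold, and the lower count was 1 as reported, 3 by thinning or by the mean of single cells, 2 by the mean of the 5 clusters and 0 at 2-fold. S100a16 in astrocyte-like cells lay between 1.49 and 2.11 under the alternatives, and S100a11 between −1.38 and −0.81. The alternatives on dividing and cilia markers, the cells above or below 10%, totals without mitochondrial UMIs and the mean of the 5 clusters were chosen after the data were seen. The WT astrocyte-like cells held 2820539 UMIs against 8965480 in Nuc1, so WT values are the less precise.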
